A study of Mus musculus with 6 samples.

Results

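Cytosolic ribosomal proteins are the protein parts of the ribosomes that translate nuclear messenger RNA. Their 79 genes were taken from a table of 11417 genes by name. Names of the form Rpl or Rps followed by a number were kept, with Rplp0, Rplp1, Rplp2 and Rpsa. The 9 ribosomal S6 kinase genes (Rps6k) and 4 pseudogenes with -ps in their names were left out. The 79 members were 40 proteins of the large subunit, 30 of the small subunit, the 3 proteins of the stalk, and 5 genes named as a paralog or retrotransposed copy of another member (Rpl22l1, Rpl7l1, Rpl36al, Rps27l and Rpl37rt). The remaining member, Rps19bp1, met the name rule but encodes a protein that binds Rps19 and is not part of the ribosome. All 79 matched GENCODE release M21 (mouse build GRCm38) by identifier and symbol, and 78 were annotated there as protein coding, Rpl37rt being the exception.

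The RNA came from 3 established mouse mammary cell lines, BC44, HC11 and C57MG, which carried no treatment or transgene in the labels, with 2 libraries of poly(A) RNA per line and 6 in all. The medium of BC44 was RPMI, to which 10% serum and insulin at 5 µg/ml were added, and HC11 had EGF at 10 ng/ml besides. The medium of C57MG was DMEM, with the same serum and insulin at 10 µg/ml, and all lines were harvested 2 days after plating. Line and medium cannot be told apart, and the labels do not say whether the replicates were separate cultures, so p-values measure the spread between these libraries.

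A ribosome holds 1 copy of most of these proteins, and cells that grow and divide fast make more of them. Most ribosomal protein messenger RNAs begin with a run of pyrimidines (C or T in the DNA), the terminal oligopyrimidine tract, through which mTOR and LARP1 control their translation and stability. The mammary epithelium needs many ribosomes when it makes milk. In bulk RNA, fewer cells of a type and less RNA per cell cannot be told apart.

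Levels are in RPKM, which counts reads for each kilobase of a gene and each 1000000 reads of a library. The gene lengths that the authors used are not given, so ranks and ratios between genes depend on lengths not known here. Depth, estimated from the steps between low values, was 14270000 to 18570000 reads a library, and every member had at least 539 estimated reads in every library. The epithelial marker list summed to 5063 and 4852 RPKM in BC44, with 3074 and 2199 in HC11 and 137 and 65.5 in C57MG. Krt14 and Krt5, keratins of basal cells, made up most of the sum in BC44, where Krt8, at 0.038 and 0.064 RPKM, and Krt18, listed at 0, were the 2 of the 9 markers under 1 RPKM. None was under 1 RPKM in HC11. In C57MG 6 and 8 of the 9 epithelial markers were under 1 RPKM, and Cdh1, Epcam, Esrp1 and Cldn4 were listed at 0 in replicate 2. Krt14 made up most of both C57MG sums, at 118 and 64.8 RPKM, and Krt5 stood at 16.0 and 0.148 RPKM. The 7 listed mesenchymal or fibroblast markers summed to 257 and 304 RPKM in BC44, with 203 and 288 in HC11 and 3940 and 3626 in C57MG. The label epithelial is thus not matched by most of these markers in C57MG, Krt14 being an exception. These lists moved with every difference from C57MG given below, and their part in it was not tested.

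The ribosomal protein genes together held a smaller share of the transcriptome in C57MG than in the other lines. The 79 genes made up 12.5% and 12.02% of the summed RPKM in BC44, with 12.7% and 11.1% in HC11 and 9.71% and 9.80% in C57MG. Both C57MG libraries were below all 4 others, and the BC44 libraries lay between the HC11 libraries. As line means (SD, n = 2) the shares were 12.3% ± 0.350 in BC44, 11.9% ± 1.16 in HC11 and 9.76% ± 0.0628 in C57MG. The summed RPKM of the set was higher by 0.37 on the log2 scale in BC44 than in C57MG, and by 0.38 in HC11 than in C57MG. Between BC44 and HC11 it differed by -0.01, less than the spread between the HC11 libraries. The sum over the members was not tested.

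The median member had a level of 282 ± 9.62 RPKM in C57MG, where it had 391 ± 6.45 in BC44 and 408 ± 36.5 in HC11 (SD, n = 2). The 76 listed genes of the mitochondrial ribosome, a separate particle built for the mitochondrial genome, held 0.640% ± 0.0136 of the summed RPKM in C57MG, below the 0.777% ± 0.0165 of BC44 and the 0.772% ± 0.0175 of HC11. The ratio of the cytosolic to the mitochondrial sum was 15.2 ± 0.422, 15.8 ± 0.785 and 15.4 ± 1.15 in that order, so the ratio differed between lines by less than the spread between replicates.

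**Figure D1:**
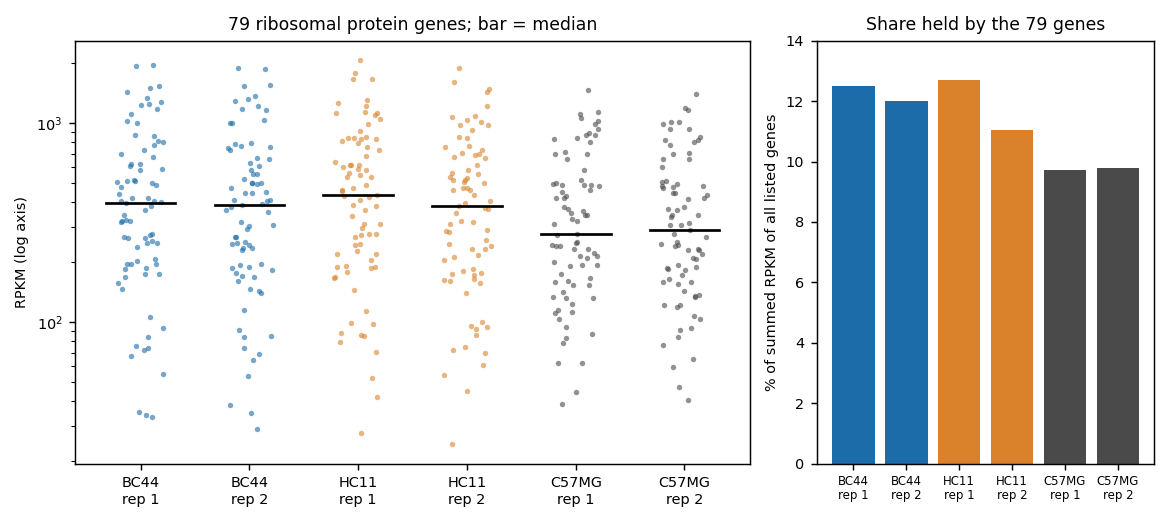
The left panel plots the RPKM of each of the 79 genes in each of the 6 libraries on a log scale, and the right panel the share of the summed RPKM held by the 79 genes, in percent, per library. The 2 C57MG libraries hold 9.71% and 9.80%, below the other 4, which hold 11.1% to 12.7%.

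The summed levels of the subunits were not in the same proportion in every line. The summed RPKM of the 40 large subunit genes was 1.13 and 1.11 times that of the 30 small subunit genes in BC44, 1.29 and 1.30 times in HC11, and 1.09 and 1.07 times in C57MG. Both HC11 ratios were above the other 4. Such sums weigh the most abundant genes most. The median log2 fold change in BC44 against HC11 was -0.058 over the large and -0.042 over the small subunit genes. The typical gene of each subunit thus gave no such difference between those lines. The large subunit sums were 14786 ± 175 RPKM in C57MG, with 19468 ± 496 in BC44 and 20880 ± 1885 in HC11, and the small subunit sums 13689 ± 29.1, 17368 ± 230 and 16122 ± 1548 in that order (SD, n = 2).

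The HC11 replicates differed across the whole set. Of the 79 members, 75 were higher in HC11 replicate 1, by a median of 1.14-fold, whereas the 492 other genes that averaged at least 100 RPKM had a median of 1.00-fold. In BC44 57 members were higher in replicate 1, by a median of 1.03-fold, and in C57MG 36 were. The ferritin heavy chain gene Fth1 stood at 6527 RPKM in HC11 replicate 1 and 11871 in replicate 2, or 1.91% and 3.43% of the sum. Its part in the lower level of the members in replicate 2 was not tested.

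BC44 and C57MG were compared to ask which members followed the set and which did not. With limma, 60 of the 79 members passed an adjusted p of 0.05, 53 higher and 7 lower in BC44. That is 75.9% of the members, and 71.7% of all 10759 tested genes passed. Of all tested genes 37.5% passed as higher in BC44 and 34.1% as lower. The median log2 fold change was 0.38 over the members and 0.04 over all tested genes. The libraries did not overlap for 73 members, against 87.9% of all tested genes.

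HC11 against C57MG shares the C57MG libraries with that comparison. Here 61 of 79 members (77.2%) passed, 55 higher and 6 lower in HC11, where 70.5% of all tested genes passed, 37.4% as higher and 33.2% as lower. The median log2 fold change was 0.40 over the members and 0.03 over all tested genes, and the libraries of 72 members did not overlap, against 86.2% of all tested genes. With quantile normalization the split was 37 higher and 11 lower, so that 77.1% of the calls were higher in HC11 in place of 90.2%, and the members' median was 0.22 in place of 0.40.

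**Figure D2:**
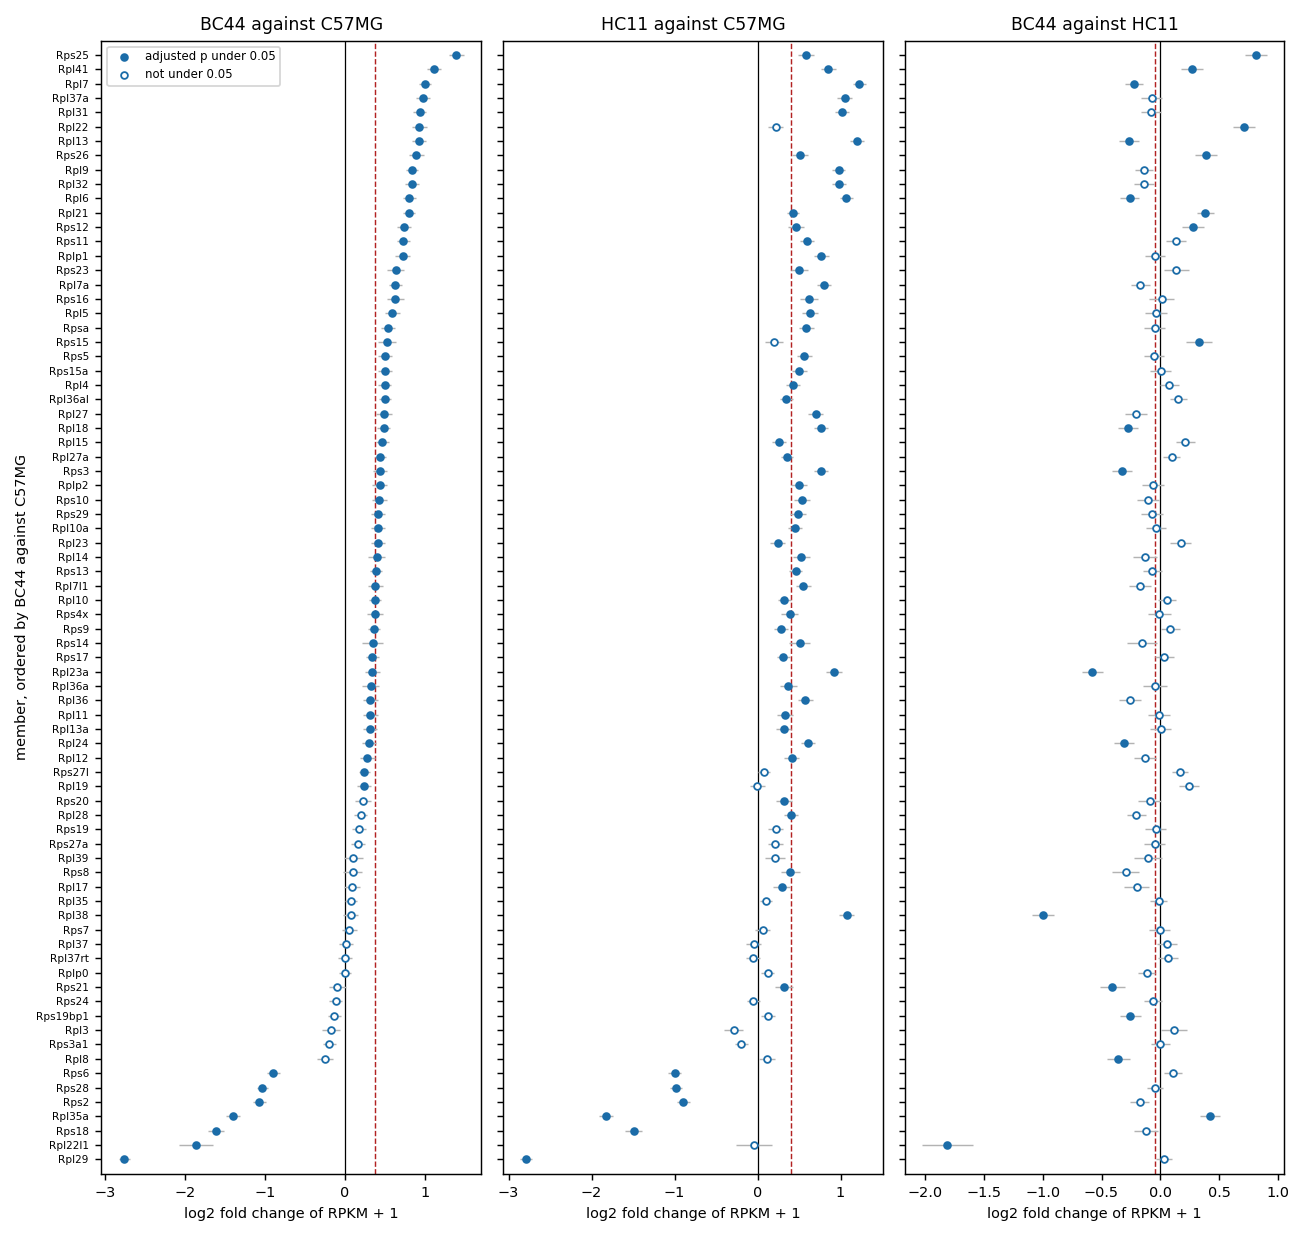
The log2 fold change of each member named here, on the log2(RPKM + 1) scale, is plotted on the x axis for the 3 comparisons of lines, with the members ordered on the y axis by BC44 against C57MG and filled points marking an adjusted p under 0.05, bars the SE and the dashed line the median of all 79 members. Most members lie above 0 in the comparisons with C57MG, and Rpl29 lies farthest below at -2.76 and -2.79.

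Most large subunit genes were lower in C57MG. Of the 40, 30 passed as higher and 2 as lower in BC44 than in C57MG, and 31 passed as higher and 2 as lower in HC11 than in C57MG. Rpl41, a very short protein at the joint between the subunits, was at 1111 and 1001 RPKM in BC44, with 911 and 839 in HC11 and 498 and 472 in C57MG. The libraries of the 3 lines did not overlap, in the order BC44, HC11 and C57MG. The means in BC44 and HC11 were 2.18-fold and 1.80-fold that in C57MG (log2 fold changes 1.12 ± 0.09 and 0.85 ± 0.09, SE, limma adjusted p = 1.94e-05 and 9.97e-05).

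Rpl7, an RNA-binding protein of the large subunit, had 509 and 496 RPKM in BC44, with 613 and 562 in HC11 and 248 and 253 in C57MG. It was higher by 1.00 ± 0.08 in BC44 and 1.22 ± 0.08 in HC11 than in C57MG on the log2 scale (SE, limma adjusted p = 1.49e-05 and 6e-06). Rpl13, Rpl6, Rpl37a and Rpl31 followed the same pattern. Their log2 fold changes over C57MG in HC11 were 1.20, 1.07, 1.05 and 1.01, and those in BC44 were 0.93, 0.81, 0.98 and 0.94. Members at least 2-fold higher and past the threshold were 4 in BC44 (among them Rpl41, Rpl7 and Rps25) and 7 in HC11 (among them Rpl13, Rpl31, Rpl37a, Rpl38, Rpl6 and Rpl7), where 14.7% and 14.2% of all tested genes met that rule. Members at least 2-fold lower and past it were 6 in BC44 (15.0% of all tested genes) and 3 in HC11 (12.9%), described below.

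Of the 30 small subunit genes, 18 passed as higher and 4 as lower in BC44 than in C57MG, and 20 passed as higher and 4 as lower in HC11. Rps12, among the most abundant members, stood at 1926 and 1879 RPKM in BC44, with 1671 and 1476 in HC11 and 1113 and 1163 in C57MG. Rps26, which lies by the messenger RNA exit, was at 1439 and 1551 RPKM in BC44, with 1210 and 1073 in HC11 and 830 and 773 in C57MG. In both genes every BC44 library was above every HC11 library, and those above both C57MG libraries. Rpsa, also known as the laminin receptor, had 1021 and 1005 RPKM in BC44, with 1119 and 981 in HC11 and 695 and 700 in C57MG, and was higher in BC44 and HC11 by 0.54 ± 0.09 and 0.59 ± 0.09 (log2, SE, limma adjusted p = 0.000992 and 0.000661). Rps27a, made as a fusion to ubiquitin, was at 250 and 248, 275 and 241, and 213 and 231 RPKM in BC44, HC11 and C57MG, and did not pass in any comparison.

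The stalk binds the translation factors that drive elongation. Rplp1, with the highest mean RPKM of the members over the 6 libraries, was at 1964 and 1877 RPKM in BC44, with 2074 and 1890 in HC11 and 1141 and 1185 in C57MG, and the C57MG pair was below all others. In C57MG Rpl8 was above it, at 1457 and 1406 RPKM. Rplp1 passed in both comparisons with C57MG at log2 fold changes of 0.72 ± 0.09 and 0.77 ± 0.09 (SE, limma adjusted p = 0.000191 and 0.000155). Its partner Rplp2 was at 173 and 161, 188 and 161, and 124 and 122 RPKM, and passed in both at 0.44 and 0.50. Rplp0, which anchors the pairs of Rplp1 and Rplp2 to the ribosome, had 1002 and 1030 RPKM in BC44, with 1123 and 1081 in HC11 and 1019 and 1007 in C57MG. Rplp0 had log2 fold changes of 0.00 ± 0.08 and 0.12 ± 0.08 over C57MG (SE, limma adjusted p = 0.964 and 0.188). With quantile normalization the value in BC44 against C57MG was -0.28, with an adjusted p of 0.00949.

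Some of the members that did not pass in either comparison with C57MG were abundant. Rpl8, which lies near the catalytic centre, was at 1247 and 1169 RPKM in BC44, with 1665 and 1437 in HC11 and 1457 and 1406 in C57MG, with the BC44 pair lowest. Rpl8 in BC44 against C57MG had a log2 fold change of -0.25 with a limma adjusted p of 0.0554, which was 0.00277 with quantile normalization at -0.51. It was also under 0.05 with median-ratio scaling (0.0389), robust variance (0.0336), only the 4 libraries compared (0.0195) and a mean of at least 5 RPKM (0.0384). Rpl8 passed as lower in BC44 than in HC11 (-0.36, limma adjusted p = 0.0204). That call was lost with only the 4 libraries compared (0.0622) and with scaling to all other genes (0.0676). Rps24 was at 733 and 769, 808 and 763, and 804 and 823 RPKM, and Rps3a1 at 800 and 791, 830 and 761, and 892 and 928 RPKM, in BC44, HC11 and C57MG. In Rps3a1 the C57MG pair was the highest, but the log2 fold changes of -0.19 and -0.19 had adjusted p of 0.0638 and 0.063.

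Against the direction of the set, 6 members passed as higher in C57MG than in both other lines, and each passed with the same direction in all 16 alternative analyses of both comparisons. They were Rpl29, Rps18, Rpl35a, Rps2, Rps28 and Rps6. Rpl29 (chr9:106429454-106431568, GRCm38, + strand), a heparin-binding protein of the large subunit, stood at 54.6 and 53.6 RPKM in BC44, with 52.0 and 53.7 in HC11 and 379.9 and 363.5 in C57MG. The BC44 and HC11 libraries overlapped, and the C57MG mean was 6.88-fold and 7.03-fold higher (log2 fold changes -2.76 ± 0.07 and -2.79 ± 0.07, SE, limma adjusted p = 2.71e-07 and 1.9e-07). Rpl35a (chr16:33056453-33060189, + strand), a large subunit gene mutated in Diamond-Blackfan anemia, had 35.0 and 34.9 RPKM in BC44, with 27.5 and 24.2 in HC11 and 94.5 and 93.4 in C57MG. The 3 lines did not overlap, and C57MG was 2.69-fold above BC44 and 3.63-fold above HC11 (limma adjusted p = 4.18e-06 and 1.27e-06).

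The other 4 belonged to the small subunit. Rps18 (chr17:33951999-33956001, - strand), in the head of the small subunit, was at 72.3 and 74.0 RPKM in BC44, with 88.0 and 71.9 in HC11 and 222 and 229 in C57MG. The BC44 and HC11 libraries overlapped, and C57MG was 3.09-fold and 2.82-fold higher (limma adjusted p = 5.36e-06 and 9.16e-06). Rps2 (chr17:24718116-24721929, + strand), at the entry of the messenger RNA channel, was at 396 and 408, 473 and 435, and 872 and 817 RPKM in BC44, HC11 and C57MG, and C57MG was 2.10-fold and 1.86-fold higher. Rps28 (chr17:33819027-33824562, - strand), close to the messenger RNA exit, was at 93.1 and 91.0, 97.6 and 92.3, and 191 and 187 RPKM, and C57MG was 2.05-fold and 1.99-fold higher. Rps6 (chr4:86854660-86857412, - strand), the substrate of the S6 kinases, was at 440 and 446, 429 and 394, and 843 and 804 RPKM, and C57MG was 1.86-fold and 2.00-fold higher. In all of these both C57MG libraries were above the other 4 libraries.

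Position and copies elsewhere in the genome were set beside these members. Rps18, Rps2 and Rps28 lie on chromosome 17 with Rpl10a, Rps10, Rpl36 and Rpl7l1, which passed as lower in C57MG than in both other lines. The log2 fold changes of those 4 were 0.42, 0.43, 0.32 and 0.38 with BC44 as the first line, and 0.45, 0.54, 0.58 and 0.55 with HC11. Whole chromosomes also differed from C57MG. Over all tested genes the median was -0.145 with BC44 first and -0.234 with HC11 first on chromosome 17. It was 0.643 and 0.681 on chromosome 8, which holds Rpl13, and -0.606 and -0.588 on chromosome 15, which holds Rpl8 and Rpl37. The part of position in the changes of members was not tested. Annotated pseudogenes with -ps in the name numbered 3 for Rpl29, 3 for Rps18, 11 for Rps2, 4 for Rps6, 6 for Rpl35a and 0 for Rps28, and 56 of the 79 members had at least 1. How the authors' counting shared out reads between a gene and such copies is not given in the sources used here, so the levels of members with copies are uncertain. Copies under other names were not counted. Of the 56 members with -ps copies 44 (78.6%) passed in BC44 against C57MG and 45 (80.4%) with HC11 in place of BC44. Of the 23 without a copy named with -ps 16 (69.6%) passed in each. These 23 are not free of copies: Rpl37 is among them, and its copy Rpl37rt has another form of name. Over all tested genes 71.7% and 70.5% passed, and the part of copies in these shares was not tested.

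**Figure D3:**
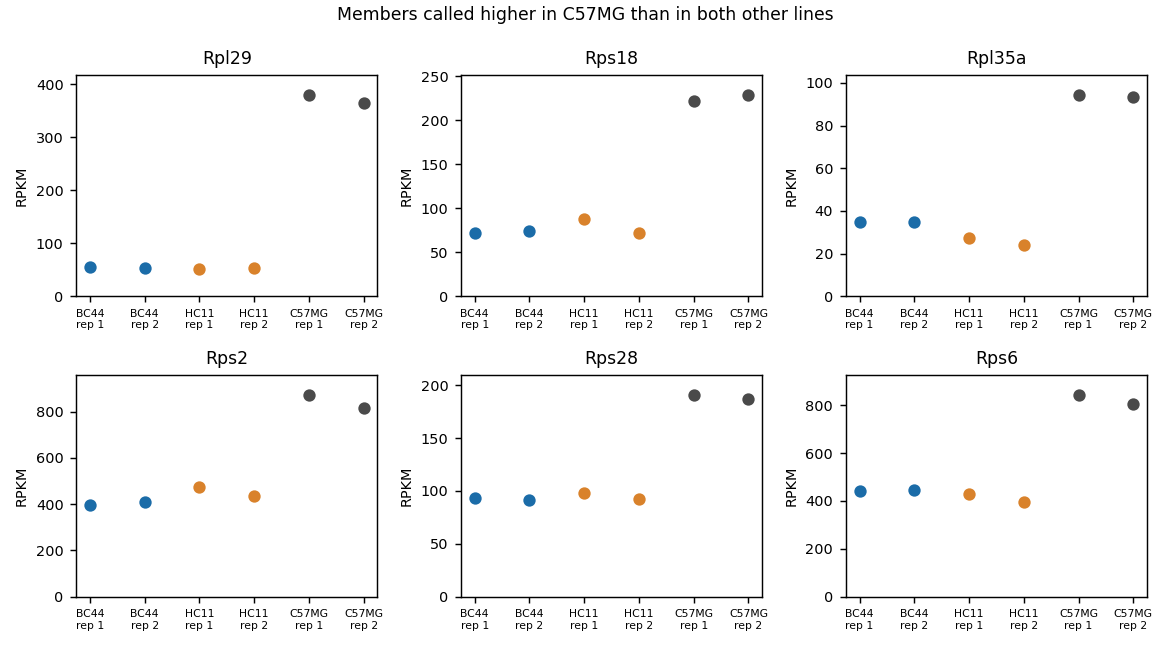
Each panel plots the RPKM (y axis, starting at 0) of 1 of the 6 members called higher in C57MG in the 6 libraries (x axis). Both C57MG points lie above the other 4 in every panel, at 379.9 and 363.5 RPKM for Rpl29 against 52.0 to 54.6.

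BC44 and HC11 share a basal medium, to which EGF was added for HC11. Of the 79 members 20 passed, 8 higher and 12 lower in BC44, which is 25.3% of the members where 47.7% of all tested genes passed, 24.7% as higher and 23.0% as lower. The median log2 fold change was -0.04 over the members and 0.02 over all tested genes, and 39 members did not overlap, against 73.0% of all tested genes. The direction of the calls moved with the scaling: 12 higher and 7 lower with quantile normalization, and 12 higher and 3 lower when each library was scaled to the summed RPKM of its other genes. Without HC11 replicate 1, 17 passed (13 higher, 4 lower), and without HC11 replicate 2, 23 passed (5 higher, 18 lower). Without BC44 replicate 1 or BC44 replicate 2, 8 passed each, and without C57MG replicate 1 or C57MG replicate 2, 10 passed each. Past the threshold and at least 2-fold apart on the log2(RPKM + 1) scale, no member was higher and 1, Rpl22l1, was lower in BC44, where 5.42% and 7.09% of all tested genes were. Rpl21, Rpl22, Rpl35a and Rps25 passed as higher in BC44, and Rpl22l1, Rpl23a and Rpl38 as lower, in all 16 alternatives.

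Rps25 (chr9:44407139-44410427, + strand), a small subunit protein needed for initiation at some internal ribosome entry sites, was the member with the greatest excess in BC44. It stood at 1277 and 1294 RPKM in BC44, with 789 and 675 in HC11 and 494 and 481 in C57MG, and the 3 lines did not overlap. BC44 was 1.76-fold above HC11 and 2.64-fold above C57MG (log2 fold changes 0.82 ± 0.09 and 1.40 ± 0.09, SE, limma adjusted p = 0.000371 and 7.32e-06). Rpl21 was at 237 and 236, 190 and 173, and 134 and 136 RPKM in BC44, HC11 and C57MG, with the lines apart in the same order, at 1.30-fold over HC11 and 1.76-fold over C57MG.

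Rpl38 (chr11:114668524-114672331, + strand), a large subunit protein whose loss alters the skeletal pattern in mice, was instead highest in HC11. It stood at 403 and 386 RPKM in BC44, with 851 and 730 in HC11 and 369 and 379 in C57MG. HC11 was 2.00-fold above BC44 and 2.11-fold above C57MG (log2 fold changes of -0.997 ± 0.09 for BC44 against HC11 and 1.07 ± 0.09 for HC11 against C57MG, SE, limma adjusted p = 0.00013 and 3.28e-05), while BC44 against C57MG gave 0.08 with an adjusted p of 0.483. Rpl23a, at the exit of the peptide tunnel, was at 605 and 626, 993 and 850, and 486 and 483 RPKM in BC44, HC11 and C57MG, and HC11 was 1.497-fold above BC44 and 1.90-fold above C57MG. Rps21 was at 275 and 253, 387 and 317, and 273 and 289 RPKM, so its HC11 pair was above the rest. The call of Rps21 in BC44 against HC11 (-0.41, adjusted p = 0.0176) was lost without HC11 replicate 1, at -0.26 with an adjusted p of 0.056, and without BC44 replicate 1 or BC44 replicate 2, at adjusted p of 0.0509 and 0.111.

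The paralogs were set beside their parent genes, first by their sequence and then by their level. Paralogs of ribosomal proteins can take the place of the parent protein or act outside the ribosome. The lines below give 60 bases of the annotated coding sequences of Rpl22, Rpl22l1 and Rpl37 from GENCODE release M21. The copy Rpl37rt is annotated as a pseudogene without a coding sequence, so bases of its annotated transcript are given. The Rpl22 pair is divergent and the Rpl37 pair all but identical. Capitals mark the aligned bases at which a pair differs. The Rpl22 stretch is bases 175 to 234 and the Rpl22l1 stretch bases 157 to 216, and both stretches of the other pair are bases 1 to 60.
Rpl22: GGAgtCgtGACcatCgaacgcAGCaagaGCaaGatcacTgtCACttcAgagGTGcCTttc
Rpl22l1: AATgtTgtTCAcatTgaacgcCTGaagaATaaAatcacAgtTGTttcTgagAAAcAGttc
Rpl37: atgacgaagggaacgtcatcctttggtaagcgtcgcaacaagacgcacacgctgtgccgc
Rpl37rt: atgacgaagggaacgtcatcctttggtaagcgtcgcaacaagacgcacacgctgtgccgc
Over the aligned coding bases Rpl22 and Rpl22l1 were 72.7% identical, with 26 bases as the longest identical stretch. Rpl7 and Rpl7l1 were 64.8% identical, and Rpl36a and Rpl36al 87.7%. The coding sequence of Rpl37 and the transcript of Rpl37rt were identical at 290 of 291 aligned bases (99.7%). Their longest identical stretch was 248 bases, so short reads from one could be counted for the other.

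Rpl22, which binds RNA and is needed for T cell development, and its paralog Rpl22l1 were opposed in BC44. Rpl22 (chr4:152325742-152334071, + strand) stood at 174 and 168 RPKM in BC44, with 113 and 95.1 in HC11 and 86.8 and 91.0 in C57MG. Rpl22l1 (chr3:28805436-28807424, + strand) stood at 33.1 and 29.1 RPKM in BC44, with 145 and 85.6 in HC11 and 111 and 119 in C57MG. The BC44 libraries were the highest in Rpl22 and the lowest in Rpl22l1. Rpl22 passed as higher in BC44 than in HC11 (log2 fold change 0.72 ± 0.09, limma adjusted p = 0.000732) and than in C57MG (0.93 ± 0.09, adjusted p = 6.83e-05). Rpl22l1 passed as lower in BC44, by -1.81 ± 0.22 against HC11 and -1.86 ± 0.22 against C57MG (limma adjusted p = 0.000446 and 0.000146), both 3.71-fold between means. The ratio of Rpl22 to Rpl22l1 was 5.25 and 5.77 in BC44, with 0.776 and 1.11 in HC11 and 0.779 and 0.763 in C57MG.

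Rpl22l1 was also the paralog whose HC11 replicates were farthest apart. Its log2 fold change in HC11 against C57MG was -0.05 (adjusted p = 0.857), 0.33 without HC11 replicate 2 (adjusted p = 0.0373) and -0.42 without HC11 replicate 1 (adjusted p = 0.0161), so no direction can be given for that pair of lines.

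The other paralogs differed less between lines than Rpl22l1, with log2 fold changes within 0.55 of 0. Rpl7l1, a factor of large subunit assembly, was at 74.2 and 84.6 RPKM in BC44, with 84.6 and 94.3 in HC11 and 62.0 and 59.2 in C57MG, and passed as higher in both lines than in C57MG (0.38 and 0.55, limma adjusted p = 0.00752 and 0.00124). The first of these calls was lost without BC44 replicate 2 or C57MG replicate 2 (adjusted p = 0.0519 and 0.0525). The ratio of Rpl7 to Rpl7l1 was 6.86 and 5.87 in BC44, with 7.25 and 5.97 in HC11 and 4.005 and 4.27 in C57MG. The C57MG ratios were thus the lowest.

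Rpl36al was at 105.6 and 115.0 RPKM in BC44, with 98.6 and 99.4 in HC11 and 78.6 and 76.7 in C57MG, and passed as lower in C57MG than in both. Its parent Rpl36a was at 157 and 140, 167 and 140.3, and 115 and 121 RPKM in the same order, and passed as well (limma adjusted p = 0.0241 and 0.0147). The Rpl36a calls rested on single libraries: with BC44 first the adjusted p was 0.144 without BC44 replicate 1, 0.123 without C57MG replicate 1 and 0.062 without C57MG replicate 2, and with HC11 first it was 0.0713 without HC11 replicate 1 and 0.086 without C57MG replicate 1. The ratio of Rpl36a to Rpl36al ranged from 1.22 to 1.69 over the 6 libraries, and the ranges of the lines overlapped.

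Rps27l, a target of p53, was at 185 and 186 RPKM in BC44, with 168 and 162 in HC11 and 153 and 159 in C57MG. Its parent gene is not analysed here. Rps27l passed in BC44 against C57MG only (0.24, limma adjusted p = 0.0145), and the adjusted p lay between 0.0502 and 0.105 when any BC44 or C57MG library was left out. Rpl37rt stood at 74.6 to 85.8 RPKM and Rpl37 at 463 to 534, and neither passed in any comparison. The ratio of Rpl37 to Rpl37rt was between 6.08 and 6.30 in all 6 libraries, and with the near-identical sequences above neither level can be read as that of 1 locus. Rps19bp1 had the lowest mean RPKM of the members over the 6 libraries, at 34.1 to 44.7. By line means, though, Rpl22l1 was lower in BC44, and Rpl35a was lower in BC44 and in HC11. The 3 lines did not overlap for Rps19bp1, in the order HC11, C57MG and BC44. It passed in BC44 against HC11 only (-0.25, adjusted p = 0.0442), a call lost without BC44 replicate 1 (0.198), HC11 replicate 1 (0.055), HC11 replicate 2 (0.155), C57MG replicate 1 (0.0795) or C57MG replicate 2 (0.0798), each an adjusted p.

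**Figure D4:**
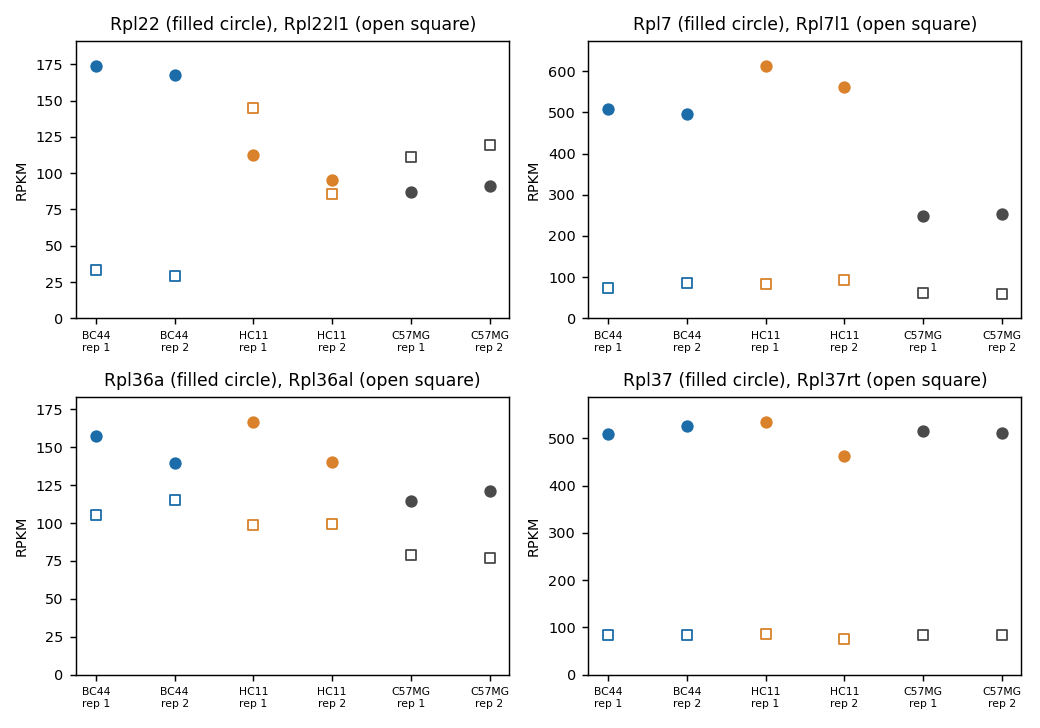
Each panel plots the RPKM (y axis, starting at 0) of a parent gene as filled circles and of its paralog or copy as open squares in the 6 libraries (x axis). Rpl22 stands at 5.25 and 5.77 times Rpl22l1 in BC44 and at 0.763 to 1.11 times in the other 4 libraries, and Rpl37 keeps 6.08 to 6.30 times the level of Rpl37rt in every library.

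The start sites of the members were read for the pyrimidine run named above. RefSeq promoters of build GRCm38.p6 were found for 60 of the 79 members, of which 52 had 1 listed start. The motif CTTTC, searched on the gene's own strand within 20 bases on either side of the start, was present in 16 of these 52 (30.8%), in 5.46% of all 22862 promoters with 1 start, in 4.58% of those of the genes in the table, and in 2 of 64 mitochondrial ribosomal genes. A run of at least 8 C or T that overlapped the 10 bases before to 15 after the start was present in 24 of the 52 (46.2%) and in 15.0% of all promoters, and such a run can hold the motif. A run need not begin at the start, as a terminal tract does. The first base was C in 18 of the 52 (34.6%) and C or T in 26 (50%), against 16.2% and 29.1% of all promoters. A match is a description of these letters. The lines below give 20 bases before the listed start and 20 from it on, with the longest such run in capitals, for Rps6, Rps18, Rps28 and Rps2, which were higher in C57MG, for Rpl38, highest in HC11, for Rpl22l1, lowest in BC44, and for Rplp2, which followed the set.
Rps6 (chr4:86857348-86857387, - strand): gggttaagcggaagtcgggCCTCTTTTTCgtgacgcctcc
Rps18 (chr17:33955646-33955685, - strand): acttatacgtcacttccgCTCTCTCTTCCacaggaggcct
Rps28 (chr17:33824543-33824582, - strand): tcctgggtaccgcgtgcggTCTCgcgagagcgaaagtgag
Rps2 (chr17:24720043-24720082, + strand): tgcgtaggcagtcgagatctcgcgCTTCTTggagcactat
Rpl38 (chr11:114668560-114668599, + strand): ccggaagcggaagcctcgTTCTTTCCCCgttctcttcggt
Rpl22l1 (chr3:28805488-28805527, + strand): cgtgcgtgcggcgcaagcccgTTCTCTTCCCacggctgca
Rplp2 (chr7:141447631-141447670, + strand): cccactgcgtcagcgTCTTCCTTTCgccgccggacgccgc
Rps6, Rps18, Rpl38, Rpl22l1 and Rplp2 had runs of 10, 11, 10, 10 and 10 bases, and Rps28 and Rps2 had runs of 4 and 6. Members with long runs were thus found among those that were higher and those that were lower in C57MG. The 16 members with CTTTC had a median log2 fold change of 0.46 in BC44 against C57MG and of 0.50 in the comparison of HC11 with C57MG, and the 36 without it 0.38 and 0.36. All 16 were above 0 in both comparisons, and 29 and 28 of the 36 were. Rpl29 and Rpl23a were among the members without an entry.

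The wider machinery of ribosome building and translation was counted from the same fit. Of the ribosomal proteins that the name rule does not reach, Fau was at 585 and 544 RPKM in BC44, with 606 and 528 in HC11 and 277 and 278 in C57MG. It was lower in C57MG by more than the median member, at log2 fold changes of 1.02 for BC44 and 1.03 for HC11, both past the threshold. Rack1 passed in HC11 against C57MG (0.40) but not in BC44 against C57MG (0.09, adjusted p = 0.41).

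Of the 30 genes of rRNA processing and ribosome assembly 21 passed as higher and 1 as lower in BC44 than in C57MG, and 22 and 2 did so in HC11, with medians of 0.61 and 0.69. Nob1, an endonuclease that finishes the small subunit RNA, was 1.94 and 1.55 higher on the log2 scale, and Bop1, a factor of large subunit assembly, was lower by -1.31 in BC44 and -0.33 in HC11. Of the 76 mitochondrial ribosomal genes 37 passed as higher and 7 as lower in BC44, and 39 and 8 in HC11, with medians of 0.26 and 0.27. For the 13 RNA polymerase I genes the counts were 7 and 2 in BC44 and 10 and 2 in HC11. For the 25 initiation and poly(A) binding factors they were 13 and 3, and 14 and 2, and for the 9 genes of the elongation factor list 6 and 2, and 6 and 1. In that list Eef2 was 0.82 and 0.58 higher. Tpt1, which was put in the list but is not itself an elongation factor, was lower in BC44 than in both other lines. It stood at 272 and 262 RPKM in BC44, with 618 and 538 in HC11 and 522 and 570 in C57MG.

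The 13 listed regulators of ribosomal protein synthesis went both ways, 5 higher and 4 lower in BC44 than in C57MG, and 4 and 4 in HC11. Myc, which drives transcription of ribosomal genes, was at 65.4 and 75.8 RPKM in BC44, with 70.5 and 86.4 in HC11 and 37.5 and 28.0 in C57MG, and Larp1 was at 76.4 and 82.9, 81.2 and 83.8, and 37.5 and 35.3 RPKM. Maf1, a repressor of RNA polymerase III, was at 6.83 and 6.08, 16.9 and 11.9, and 36.0 and 39.7 RPKM. Myc and Larp1 passed as lower in C57MG and Maf1 as higher, in both comparisons. The 492 other genes that averaged at least 100 RPKM gave 234 higher and 148 lower in BC44, and 259 and 131 in HC11, with medians of 0.17 and 0.29. Between BC44 and HC11 these 492 gave 117 higher and 132 lower in BC44, 50.6% in all, where the members gave 25.3%.

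**Figure D5:**
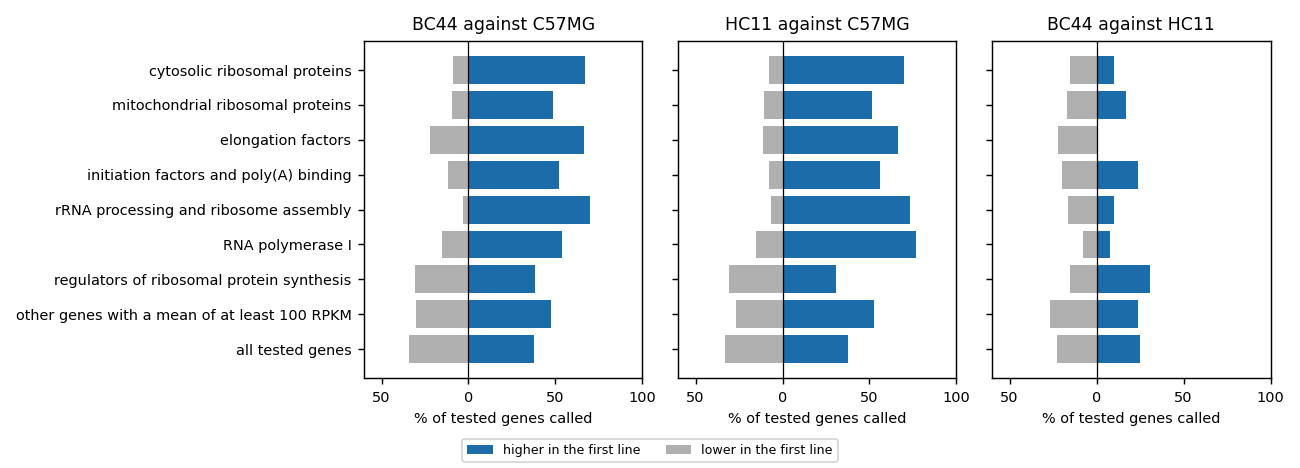
The bars give the percent of tested genes of each list (y axis) that passed an adjusted p of 0.05, to the right of 0 for higher and to the left for lower in the first line named, for the 3 comparisons. For the cytosolic ribosomal proteins 53 and 55 of 79 lie to the right in the comparisons with C57MG, and 8 in BC44 against HC11.

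Within the set, levels and changes were uneven. Between Rplp1 and Rps19bp1 the mean over the 6 libraries ran from 1688 to 39.6 RPKM, Rps12 and Rpl8 followed Rplp1 at 1538 and 1397, and Rpl35a and Rps15a preceded Rps19bp1 at 51.6 and 59.0. Annotated exon length ran from 383 to 6270 bases with a median of 1770, and across the 79 genes, which are not independent, log2 mean RPKM and log2 length had Pearson's r of -0.37 and Spearman's rho of -0.38. Both measures share the length, by which RPKM is divided. In BC44 against HC11 61 members lay within 0.25 of the median log2 fold change, and 38 and 44 did in BC44 and HC11 against C57MG. The line means fell in the order HC11, BC44, C57MG for 42 members and BC44, HC11, C57MG for 21, and the orders that begin with C57MG were found for 5 and 4.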

How the data were processed

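Poly(A) RNA of 6 libraries was prepared with a strand-marking kit, per the labels' protocols. The deposited values are RPKM computed by the authors, 1 per gene and library. STAR and mouse build mm9 are named, per the submitters' processing notes, without a role or order. The read counter, the annotation, the gene lengths, the use of strand and the treatment of reads that match several places are not given in the sources used here. Values of overlapping or near-identical genes are therefore uncertain. Coordinates and lengths are from GENCODE release M21 (GRCm38), matched by gene identifier, and start sites from RefSeq.

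A linear model over all 6 libraries was fitted to log2(RPKM + 1) in limma 3.58.1 (R 4.3.3), with moderated variances and a mean-variance trend. The 10759 genes with at least 1 RPKM in at least 2 libraries were tested, all 79 members among them, and 658 were not. Two-sided p-values were adjusted after Benjamini and Hochberg over all tested genes of a comparison, and 0.05 was the threshold. Fold changes on this scale understate the change of low genes, and fold values between means are ratios of mean RPKM without the added 1. The steps were tested on simulated data. Depth was estimated from annotated exon lengths, with 74.1% to 79.4% of 249 to 397 low values per library within 0.15 of a whole read. A read number fixed beforehand would give 30% by chance. The number used was chosen to fit these same values, so 30% is not its chance level. The rest used Python 3.11.15 with pandas 2.3.3 and numpy 2.4.6, and matplotlib 3.10.9 for plots.

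The members, the lists and the rule for named genes were chosen with earlier results of these data known. The rule named paralogs with their parents, Rplp0, Rplp1, Rplp2, Rpsa and Rps27a, the 5 largest changes past the threshold per comparison and direction whose libraries did not overlap, the 3 highest and 3 lowest members, and the 2 largest changes per list. 1 member and 1 listed gene that it named are not reported here, though the counts include them. Other genes in the text were picked with their values in view. As alternatives the pseudocount was 0.1, the filter was dropped or set at a mean of 5 RPKM, libraries were scaled by quantiles or median ratios, and limma was run on the 4 compared libraries, without trend, with robust variance or with a replicate block. Each library was also left out, and scaling to the summed RPKM of all other genes was chosen after seeing the data. The leukocyte list had 1 gene listed, Cd68 at 1.36 to 3.30 RPKM, and the 2 listed endothelial markers summed to 0.252 to 2.38 RPKM.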

Additional observations from a re-analysis of the deposited data

How the results depend on the processing

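The 60 and 61 members called against C57MG stayed within 1.5 times under all 16 alternatives, at 48 to 63 and 47 to 67. Of these calls 38 and 37 as higher, and 7 and 6 as lower, held in every alternative. The 20 calls in BC44 against HC11 were 10 with only the 4 libraries compared, 13 without the trend, and 8 to 23 over the left-out libraries. The summed level in BC44 against HC11, -0.0138 on the log2 scale, was 0.0471 as a share of the summed RPKM, 0.0526 when scaled to all other genes, and -0.1023 to 0.0805 over the left-out libraries, so its sign is not determined. In BC44 against C57MG it was 0.4734 as the median of members, 0.3419 with median-ratio scaling and 0.3302 as a share, against 0.3703. In HC11 against C57MG it was 0.5320 as the median of members, 0.3183 when scaled to all other genes and 0.2830 as a share, against 0.3840. There it was 0.2897 without HC11 replicate 1 and 0.4726 without HC11 replicate 2. The cause of these shifts was not tested.

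A replicate block on the library numbers gave 18 calls in BC44 against HC11 in place of 20. It gave 60 in BC44 against C57MG, as without it, and 62 for HC11 in place of 61. The labels share only a number between lines, and the correlation across genes of the deviations of same-numbered libraries was 0.354, -0.039 and 0.038 in that order, so the pairing is not used.

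Over 138 log2 fold changes of named genes and 2204 alternative values, 43 changed sign, and 2 of these gained a call: Rplp0 in BC44 against C57MG with quantile normalization and Rpl22l1 in HC11 against C57MG without HC11 replicate 2. With the sign kept, 107 lost and 16 gained a call. Sign changes in BC44 against HC11 with scaling to all other genes were 0.02 for Rpl36a, 0.03 for Rps19, 0.02 for Rplp1, 0.01 for Rplp2, 0.02 for Rpsa, 0.02 for Rps27a and 0.02 for Rps28. With quantile normalization they were 0.06 for Rpsa, 0.07 for Rps27a, 0.10 for Rpl37a and 0.01 for Rps28, and with median-ratio scaling -0.01 for Rps15a. In BC44 against C57MG quantile normalization gave -0.01 for Rpl37rt, -0.08 for Rpl37, -0.28 for Rplp0 and -0.07 for Rpl38, and median-ratio scaling -0.02 for Rpl37rt, Rpl37 and Rplp0. In HC11 against C57MG quantile normalization gave -0.04 for Rps27l and -0.15 for Rplp0. Ranges over the left-out libraries that cross 0 were, in BC44 against HC11, -0.04 to 0.16 for Rpl37rt, -0.17 to 0.08 for Rpl36a, -0.05 to 0.16 for Rpl37, -0.13 to 0.05 for Rps19, -0.11 to 0.02 for Rplp1, -0.17 to 0.05 for Rplp2, -0.14 to 0.05 for Rpsa, -0.14 to 0.05 for Rps27a, -0.26 to 0.02 for Rps18, -0.17 to 0.02 for Rpl37a and -0.10 to 0.10 for Rps15a. In BC44 against C57MG they were 0.00 to 0.01 for Rpl37rt, -0.01 to 0.03 for Rpl37 and -0.02 to 0.02 for Rplp0, and in HC11 against C57MG -0.42 to 0.33 for Rpl22l1, -0.16 to 0.04 for Rpl37rt and -0.15 to 0.06 for Rpl37. With the reported settings none of these genes passed the threshold in the comparison named for it here.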

Other observations

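The 4 pseudogene entries left out by name were listed at lower levels than most members. Rpl14-ps1 stood at 83.0 and 80.2 RPKM in BC44, with 102.5 and 83.7 in HC11 and 66.1 and 63.1 in C57MG, and Rps15a-ps4 at 23.4 and 26.9, 23.4 and 20.1, and 17.6 and 16.4 RPKM. Both passed as lower in C57MG than in BC44 (limma adjusted p = 0.021 and 0.0031) and than in HC11 (0.0029 and 0.027). Rps15a-ps6 and Rps19-ps3 were at 7.04 to 15.0 and 4.81 to 6.95 RPKM. Reads of these entries and of their parents may not be told apart.

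The nearest listed genes of the 6 members called higher in C57MG did not share 1 direction, and their values are given without a test. Beside Rps18, Vps52, which overlaps it, was 1.79-fold and 2.17-fold higher in C57MG than in BC44 and HC11, and B3galt4 stood at 0.149 and 0.0615 RPKM in BC44 and HC11 and at 2.75 in C57MG. Beside Rps28, Ndufa7 was 1.81-fold and 1.76-fold higher, while Kank3, which overlaps Rps28, stood at 2.02 and 0.648 RPKM in BC44 and HC11 and at 0.0475 in C57MG. Beside Rpl29, whose excess in C57MG was the largest of the 79 members, Dusp7 stood at 44.9, 38.9 and 11.6 RPKM and Acy1 at 13.9, 11.8 and 9.39 RPKM, BC44 being given first and C57MG last. Beside Rps2, Tbl3 was at 16.7, 18.5 and 10.4 RPKM and Ndufb10 at 67.1, 51.1 and 65.2 RPKM. Beside Rps6, Dennd4c was 1.23-fold and 2.21-fold higher in C57MG than in BC44 and HC11, and Mllt3 1.12-fold and 1.81-fold. Beside Rpl35a, Iqcg stood at 0.456, 0.341 and 0.950 RPKM and Lmln at 2.75, 1.92 and 0.815 RPKM.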
